A study of Mus musculus with 4 samples.

Results

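The genes of the Integrator complex and of the machinery that cleaves, polyadenylates and terminates RNA polymerase II transcripts were described in mouse embryonic stem cells depleted of a polymerase subunit. They were chosen by symbol, as every gene named Ints, Cpsf or Cstf with a digit, together with Pcf11, Clp1, Fip1l1, Wdr33, Nudt21, Sympk, Papola, Papolg, Pabpn1, Rbbp6 and Xrn2. This gave 36 of the 30282 genes in the table, of which 15 encode Integrator subunits and 21 encode cleavage, polyadenylation or termination factors. No gene carried the symbol Pabpn1. The entry with the Ensembl identifier of Pabpn1 carried the symbol Bcl2l2, and it was not counted among the 36. It had 557 and 663 normalised reads in the Untreated and 608 and 537 in the IAA libraries, with overlapping groups (limma adjusted p = 0.417).

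V6.5 cells, a mouse embryonic stem cell line, carried RPB3, a core subunit of RNA polymerase II encoded by Polr2c, as a fusion with a mini auxin-inducible degron and GFP (dRPB3-mAID-GFP). All cells grew with CHIR99021 and PD0325901, inhibitors of GSK3 and MEK, and all received 1 µg/ml doxycycline for 12 h, which induces TIR1, the auxin receptor that marks the degron for destruction. Doxycycline was the sole treatment of the Untreated group (2 libraries). The IAA group (2 libraries) was then exposed to 500 µM of the auxin IAA for 12 h. Another sentence of the treatment protocol names a shorter depletion, and the difference is unresolved. Poly(A) libraries were made from total RNA, and Drosophila S2 cells served as spike-in. The comparison addresses possible secondary effects of losing a polymerase subunit. Whether the line is 1 clone and whether the libraries came from separate cultures is not given in the sources used here, so p-values measure only how far these libraries differ, and that spread may be technical. No library of cells that received IAA without the degron was analysed here. In such bulk RNA, fewer cells of a type and less RNA per cell cannot be told apart.

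Integrator binds RNA polymerase II soon after initiation and cuts the nascent RNA at small nuclear RNA genes and at many protein-coding genes, where it attenuates transcription. The cleavage and polyadenylation machinery acts at the end of protein-coding genes: CPSF recognises the hexamer AATAAA or a close variant in the RNA and cuts downstream of it, CstF and the cleavage factors I and II help to choose the site, a poly(A) polymerase adds the tail, and the exonuclease XRN2 degrades the RNA still attached to the polymerase. Both machineries cut with a related metallo-beta-lactamase endonuclease, encoded by Cpsf3 in CPSF and by Ints11 in Integrator. In mouse embryonic stem cells, Fip1l1 is known for directing the choice of poly(A) sites.

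The shared zinc-binding motif of both endonucleases is shown first, because it marks the catalytic subunits and because both genes were lower after IAA. The lines give the coding sequence around the motif, joined across an exon junction that falls within each printed stretch, with the histidine and aspartate codons of the motif in capitals. It lies at codons 71 to 76 of 684 in Cpsf3 (chr12:21291829-21293259, plus strand, GRCm38) and at codons 68 to 73 of 600 in Ints11 (chr4:155872907-155875174, plus strand, GRCm38), and each coding sequence held 1 match.
Cpsf3: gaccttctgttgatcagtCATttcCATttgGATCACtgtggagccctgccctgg
Ints11: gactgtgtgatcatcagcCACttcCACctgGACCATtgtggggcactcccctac

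The hexamer that this machinery reads also stands at the ends of some of its own transcripts. The search covered the last 30 bases of 1 transcript per gene, the longest annotated protein-coding one. Its end need not be the end of the gene, and for Ints6 it is not. AATAAA was found in 19 of the 36 members (52.8%), against 51.4% of 21809 protein-coding genes. ATTAAA without AATAAA was found in 3 members (8.33%, against 11.7%), and neither hexamer in 14 members (38.9%, against 36.9%). The lines show the last 30 bases of 5 transcripts whose genes changed, with each copy of the hexamer in capitals where there is one, on GRCm38. Ints2 and Cpsf3 have neither hexamer in this window, which says only that those letters are not there. Xrn2 lies at chr2:147077971-147078000 (plus strand), Ints6 at chr14:62685804-62685833 (minus strand), Ints7 at chr1:191623659-191623688 (plus strand), Cpsf4 at chr5:145182011-145182040 (plus strand) and Ints2 at chr11:86210681-86210710 (minus strand).
Xrn2: aaaAATAAAAATAAAgctaaactttaaaaa
Ints6: gcacacacAATAAAtatgtttttaaaccaa
Ints7: gacttagaaaacaAATAAAagcaggtcctg
Cpsf4: ctatgaggttgATTAAAaagcttgtttttt
Ints2: atttataaacattcattctttaacaatgaa

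The promoters were compared by short motifs, searched on both strands in windows from 250 bases before to 50 bases after each start in the RefSeq table (GRCm38.p6). Of the 36 members, 30 matched the table, with 33 windows. The GC box GGGCGG was found in 63.6% of these windows, against 35.7% of 32851 promoters in the table. The ETS motif CCGGAAG was found in 27.3% against 8.86% and CCAAT in 48.5% against 37.4%. TATAAA was found in 0 member windows and in 13.6% of all promoters. The member windows were rich in GC (median 62.3%, against 52.7% over all promoters) and in CpG dinucleotides (median 26, against 7), and the motif shares, which are descriptions, are not adjusted for it. Promoters are printed for 3 members that fell by close amounts and for the member that rose most, with motif matches in capitals. These matches do not overlap one another. Xrn2 (chr2:147012749-147013048, plus strand) and Cpsf3 (chr12:21286047-21286346, plus strand) each hold 1 ETS match. Ints2 (chr11:86257545-86257844, minus strand) and Ints6 (chr14:62761063-62761362, minus strand) each hold GC boxes and a CCAAT match.
Xrn2: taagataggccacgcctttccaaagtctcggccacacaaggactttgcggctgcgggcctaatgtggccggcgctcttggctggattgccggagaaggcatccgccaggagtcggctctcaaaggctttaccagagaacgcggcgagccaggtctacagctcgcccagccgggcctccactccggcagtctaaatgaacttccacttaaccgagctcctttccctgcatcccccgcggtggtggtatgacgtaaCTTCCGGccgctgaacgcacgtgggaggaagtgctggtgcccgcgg
Cpsf3: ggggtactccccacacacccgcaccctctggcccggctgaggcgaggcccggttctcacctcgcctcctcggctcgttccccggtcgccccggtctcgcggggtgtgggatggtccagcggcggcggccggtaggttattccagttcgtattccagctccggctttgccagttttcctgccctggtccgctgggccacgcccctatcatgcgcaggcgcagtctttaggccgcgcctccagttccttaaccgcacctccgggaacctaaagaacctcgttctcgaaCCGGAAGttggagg
Ints2: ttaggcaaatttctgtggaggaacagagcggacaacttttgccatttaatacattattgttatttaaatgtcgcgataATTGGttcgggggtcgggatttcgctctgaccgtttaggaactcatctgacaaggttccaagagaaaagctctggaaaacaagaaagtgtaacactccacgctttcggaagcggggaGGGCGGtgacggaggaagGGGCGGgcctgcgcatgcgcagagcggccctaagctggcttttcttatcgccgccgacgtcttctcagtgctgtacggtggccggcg
Ints6: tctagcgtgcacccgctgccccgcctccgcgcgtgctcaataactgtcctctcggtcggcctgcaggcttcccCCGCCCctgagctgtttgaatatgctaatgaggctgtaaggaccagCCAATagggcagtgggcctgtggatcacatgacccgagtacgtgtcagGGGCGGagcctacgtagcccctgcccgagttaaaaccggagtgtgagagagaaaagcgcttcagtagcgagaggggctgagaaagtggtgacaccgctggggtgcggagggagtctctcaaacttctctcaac

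Values are normalised read counts, that is, read counts that the authors scaled by a size factor for each library. Recovered reads summed to between 8724737 and 9194432 per library. The chi-square per gene between libraries, which counting error would put near 1, was 1.51 within the Untreated pair, 1.31 within the IAA pair and 10.8 to 12.0 across groups. Polr2c mRNA was 2726 and 2885 in the Untreated and 3242 and 3158 in the IAA libraries, which does not check the loss of the protein. All 10 embryonic stem cell markers were detected, with summed counts of 61124 to 62417 in the Untreated and 61276 to 63366 in the IAA libraries. Of them 5 were called lower and 3 higher, beside 28.9% and 11.1% of all genes tested. The sums hide these opposite changes. Utf1 fell from 1014 and 894 in the Untreated to 244 and 291 in the IAA libraries (log2 fold change -1.83). Klf4 rose by 0.52 on the log2 scale. Of 8 fibroblast feeder markers 4 were analysed here, and these summed to 191 and 242 against 117 and 135, with 2 of them lower and 2 under a mean of 10. The 8 markers of differentiated lineages summed to 469 and 488 against 529 and 531, with 1 higher, Eomes. The part of these markers in the results was not tested.

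After IAA, 12 of the 36 members fell and 4 rose, most by small amounts, while the share of all reads taken by the members stayed between 0.439% and 0.448% in the 4 libraries. Ints7, Xrn2, Cpsf3, Ints2, Ints11 and Cpsf1 fell most, to between 69.6% and 81.1% of the Untreated mean, and Ints6 rose most, to 140.3%. Genes were tested with limma on log2(value + 1) over the 14928 genes whose mean reached 10, and called at a Benjamini-Hochberg adjusted p under 0.05. All 36 members passed that filter. Over all genes tested 28.9% were called lower, 11.1% higher and 39.9% in either direction, and the members' 16 calls (44.4%) were near that background. Among genes of the same range of mean counts 48.6% were called. The members' median log2 fold change was -0.056, against -0.11 over all genes tested. Their changes were also smaller in size: the median absolute log2 fold change was 0.12, against 0.23 over all genes tested and 0.19 among genes of the same range of mean counts, and 1 member (2.78%), Ints7, reached 0.5, against 19.1% and 10.7%. These shares carry no test.

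Which members were called, and how many in each direction, depended on how the libraries are scaled. The deposited size factors place the median of all genes at -0.11, whereas median-of-ratios factors computed from the table place it at -0.010 and shift every log2 fold change upward by about 0.10. With those factors 10 members were lower and 8 higher, beside 20.6% and 20.0% of all genes, and the members' median was 0.042. Scaling to library totals gave 8 lower and 10 higher, beside 19.9% and 20.5%. The 10 genes lower with median-of-ratios factors were all lower at the deposited scaling too, where Sympk and Cstf3 were added. With library totals Ints4 and Pcf11 were lost as well. Ints12, Ints13, Cpsf2 and Papola were not called at the deposited scaling and were called higher with both other scalings. Cpsf6 and Cpsf7 were called higher with library totals but not with median-of-ratios factors. In the authors' deposited table, 4 members were lower (Cpsf1, Cpsf3, Ints2 and Xrn2) and 1 higher (Ints6) at an adjusted p under 0.05, beside 9.57% and 2.47% of the genes with an adjusted p, and that table's own label reads unchanged for all 5. With any 1 library left out, limma on the deposited values called 0 members and 0 of the 14928 genes. At an unadjusted p under 0.05 it still had 10 to 11 members lower and 2 to 4 higher. The voom method of limma on the recovered reads called 13 members lower and 4 higher (30.0% and 11.7% of all genes), and 12 lower and 2 to 4 higher without any 1 library.

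**Figure D1:**
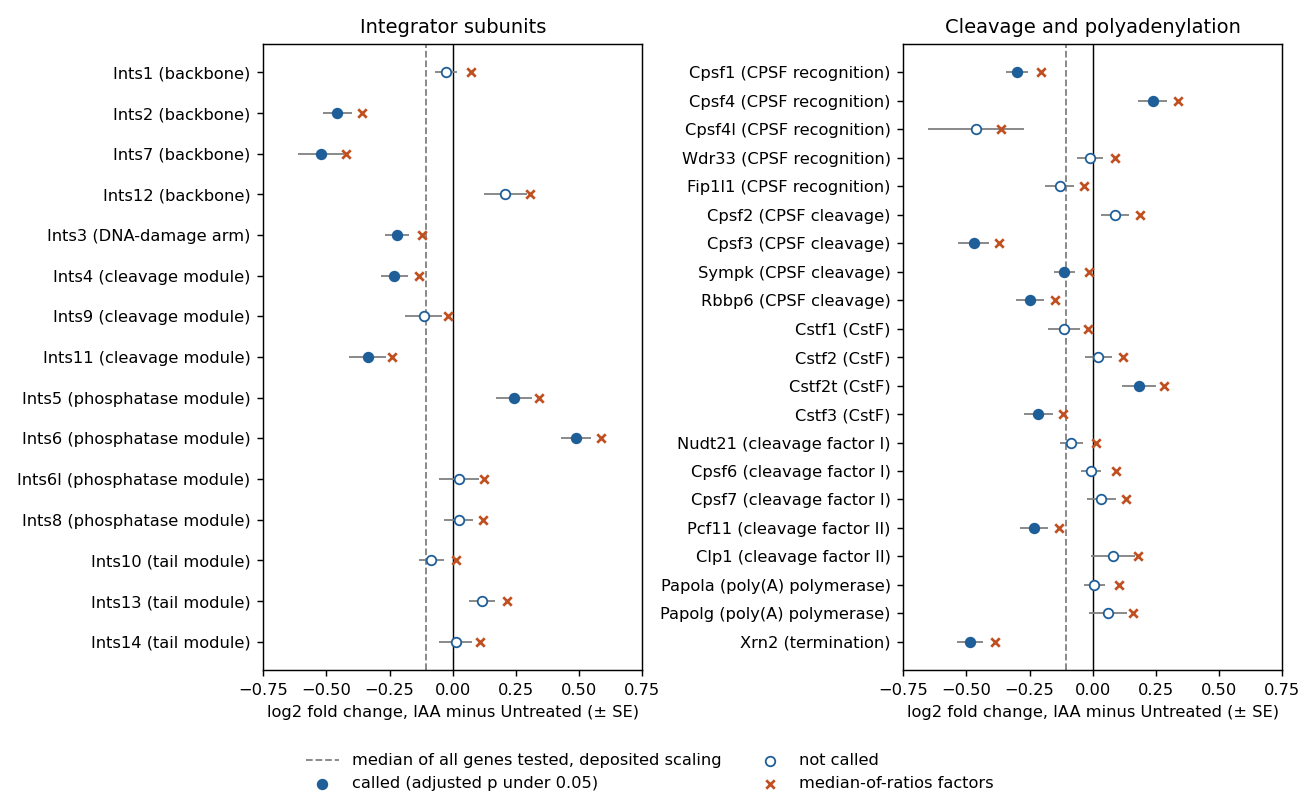
Log2 fold change of each of the 36 members (x axis, IAA minus Untreated, on the log2(value + 1) scale) by complex and role (y axis), with SE bars. Filled points were called at an adjusted p under 0.05, crosses give the same genes with median-of-ratios factors, and the dashed line is the median of all genes tested at -0.11. Ints2, Ints7, Ints3, Ints4 and Ints11 are the called Integrator genes left of 0, and Ints5 and Ints6 are those right of 0.

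Integrator subunits changed in both directions. Of the 15 subunits 5 fell (Ints2, Ints3, Ints4, Ints7 and Ints11), 2 rose (Ints5 and Ints6) and 8 were not called, with a median log2 fold change of -0.027. Over all genes tested 28.9% were lower and 11.1% higher. The factors from median-of-ratios gave 5 lower and 4 higher, beside 20.6% and 20.0% of all genes. At the deposited scaling, the 5 lower subunits belong to the backbone, the INTS3 arm and the cleavage module, and the 2 higher ones to the phosphatase module. Those added as higher with median-of-ratios factors, Ints12 and Ints13, belong to the backbone and the tail module. Whether the modules differ from each other was not tested. The Untreated and IAA libraries did not overlap for 12 of the 15 (8 with IAA below, 4 with IAA above), beside 45.6% and 22.5% of all genes tested.

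In the backbone, the scaffold that holds the other modules, 2 of 4 subunits fell, beside 28.9% of all genes tested. Ints2 (ENSMUSG00000018068, chromosome 11, 86210681 to 86257575, minus strand, GRCm38) had 1152 and 1216 normalised reads in the Untreated and 842 and 882 in the IAA libraries. Both IAA libraries lay below both Untreated ones. The mean went from 1184 ± 45.3 to 862 ± 28.3 (SD, n = 2 each), with limma giving a log2 fold change of -0.46 (SE 0.06, adjusted p = 2.67e-06), and of -0.36 with median-of-ratios factors. Ints7 had 322 and 316 in the Untreated and 223 and 221 in the IAA libraries, the largest fall of any member. Its mean went from 319 ± 4.24 to 222 ± 1.41 (SD, n = 2 each; log2 fold change -0.52, SE 0.09, limma adjusted p = 1.52e-04). In the authors' deposited table the adjusted p of Ints2 was 0.00224, whereas Ints7 was not called there. Ints1, the largest scaffold subunit, was not called (log2 fold change -0.027), and Ints12, which carries a PHD finger, was not called either (0.21, SE 0.09, limma adjusted p = 0.0605). With median-of-ratios factors Ints12 was higher (0.31) and Ints1 stood at 0.071. Ints3, which Integrator shares with the SOSS complex of single-stranded DNA repair, fell from 1692 to 1726 in the Untreated to 1450 to 1481 in the IAA libraries (log2 fold change -0.22, SE 0.05, limma adjusted p = 9.35e-04).

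The cleavage module carries the endonuclease INTS11, its inactive partner INTS9 and INTS4, which holds the pair together. Ints11 (ENSMUSG00000029034, chromosome 4, 155869546 to 155889103, GRCm38) had 698 and 799 in the Untreated and 618 and 565 in the IAA libraries. The groups did not overlap, and the Untreated pair was the more widely spread. Its mean went from 748.5 ± 71.4 to 591.5 ± 37.5 (SD, n = 2 each), with limma giving a log2 fold change of -0.34 (SE 0.07, adjusted p = 0.00102) and of -0.24 with median-of-ratios factors. The exons of Ints11 overlap those of Pusl1 on the opposite strand over 22.7% of their length, and the strand setting of the counting is not given in the sources used here. Pusl1 itself had 168 and 149 in the Untreated and 154 and 159 in the IAA libraries (limma adjusted p = 0.933). Ints4 fell from 1213 to 1240 in the Untreated to 1018 to 1072 in the IAA libraries (log2 fold change -0.23, SE 0.05, limma adjusted p = 0.00187), and was not called with the libraries scaled to their totals (-0.13, limma adjusted p = 0.0533). Ints9 was not called (-0.12, SE 0.07, limma adjusted p = 0.218).

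The phosphatase module, through which Integrator binds protein phosphatase PP2A, held both subunits that rose at the deposited scaling. There 11.1% of all genes tested were higher. Outside this module, Ints12 and Ints13 were called higher with median-of-ratios factors and library totals, beside 20.0% and 20.5% of all genes. Ints6 (ENSMUSG00000035161, chromosome 14, 62676330 to 62761169, minus strand, GRCm38), whose product contacts PP2A, had 625 and 639 in the Untreated and 872 and 901 in the IAA libraries. Every IAA value lay well above every Untreated value. The mean went from 632 ± 9.90 to 886.5 ± 20.5 (SD, n = 2 each), with limma giving a log2 fold change of 0.49 (SE 0.06, adjusted p = 3.02e-06) and of 0.59 with median-of-ratios factors. In the authors' deposited table its adjusted p was 0.00493. Ints6l, the paralogue of Ints6, had 409 and 422 in the Untreated and 408 and 438 in the IAA libraries. The groups overlapped, and the log2 fold change was 0.025 (SE 0.08). The difference between the paralogues was not tested. Ints5, another subunit of this module, went from 561 and 633 in the Untreated to 730 and 681 in the IAA libraries (log2 fold change 0.24, SE 0.07, limma adjusted p = 0.0102). By voom it was not called without Untreated replicate 1 (log2 fold change 0.15, adjusted p = 0.137) or without IAA replicate 1 (adjusted p = 0.0879). Over 14.3% of its exon length Ints5 overlaps Gm49416 on the same strand. Ints8, which also contacts PP2A, was not called (0.023), and its 2 groups overlapped.

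The tail module of INTS10, INTS13 and INTS14, which attaches to the cleavage module, had no called member at the deposited scaling. The log2 fold changes were -0.085 for Ints10, 0.12 for Ints13 and 0.011 for Ints14. With median-of-ratios factors Ints13 was higher (0.21) and Ints10 stood at 0.014.

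**Figure D2:**
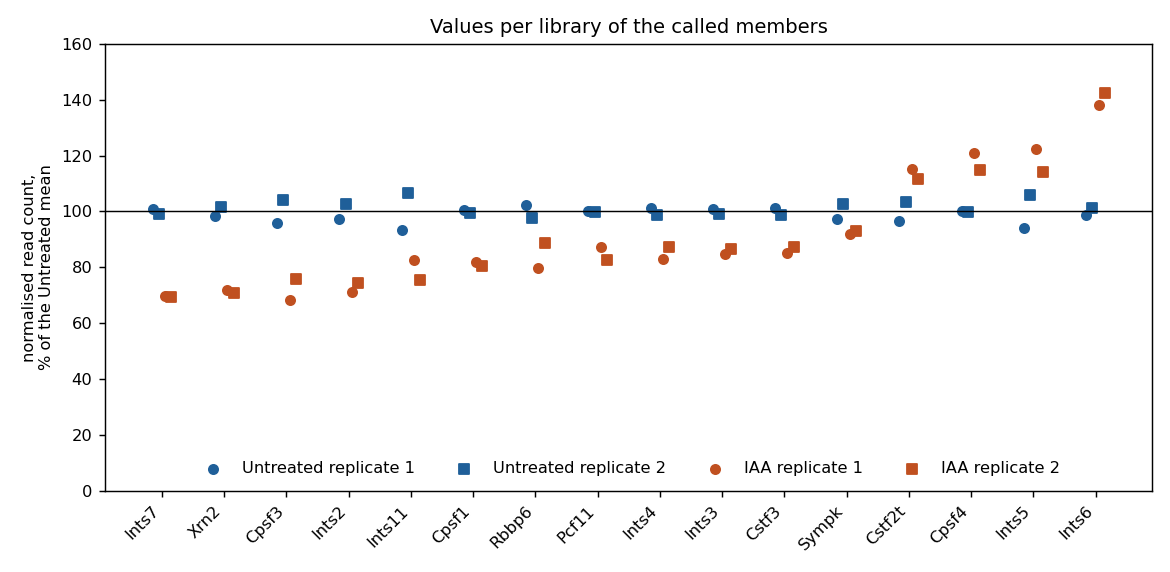
Normalised read count of each of the 16 called members (x axis) in the 4 libraries, as a percentage of the gene's Untreated mean (y axis, starting at 0). Blue marks the Untreated and orange the IAA libraries, circles replicate 1 and squares replicate 2. The IAA points of Ints7 lie near 69.6% and those of Ints6 near 140.3% of the Untreated mean.

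Of the 21 cleavage, polyadenylation and termination genes, 7 fell (Cpsf1, Cpsf3, Sympk, Rbbp6, Cstf3, Pcf11 and Xrn2), 2 rose (Cpsf4 and Cstf2t) and 12 were not called, with a median log2 fold change of -0.086, beside 28.9% lower and 11.1% higher over all genes tested. The factors from median-of-ratios gave 5 lower and 4 higher, beside 20.6% and 20.0% of all genes. The IAA libraries lay below the Untreated ones for 11 of these 21 genes, above for 4, and overlapped them for 6. These counts were near the shares of 45.6% below and 22.5% above over all genes tested.

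The recognition part of CPSF, which binds the hexamer, moved in both directions. Cpsf1, its largest subunit, had 2327 and 2303 in the Untreated and 1897 and 1859 in the IAA libraries. The IAA libraries were both lower, and the replicates of each group lay close together. Its mean went from 2315 ± 17.0 to 1878 ± 26.9 (SD, n = 2 each), with limma giving a log2 fold change of -0.30 (SE 0.04, adjusted p = 1.72e-05) and of -0.20 with median-of-ratios factors. Cpsf4, the zinc-finger subunit that reads the hexamer, had 892 and 890 in the Untreated and 1079 and 1022 in the IAA libraries, a rise of 0.24 on the log2 scale (SE 0.06; limma adjusted p = 0.00228). Its relative Cpsf4l had 123 and 80 in the Untreated and 78 and 66 in the IAA libraries, which did not overlap. That change did not pass the test (log2 fold change -0.46, SE 0.19, limma adjusted p = 0.0583). By voom Cpsf4l was called lower (adjusted p = 0.0235), but not without Untreated replicate 1 (-0.16, adjusted p = 0.622) or without IAA replicate 2 (adjusted p = 0.188). Wdr33, the other hexamer-binding subunit, stood at -0.012, and Fip1l1, which recruits the poly(A) polymerase, at -0.13 (limma adjusted p = 0.0795).

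In the cutting part of CPSF, 3 of 4 genes fell at the deposited scaling, beside 28.9% of all genes tested. The factors from median-of-ratios gave 2 lower and 1 higher, beside 20.6% and 20.0% of all genes. Cpsf3 (ENSMUSG00000054309, chromosome 12, 21285391 to 21315056, GRCm38), the endonuclease whose zinc-binding codons are printed above, had 1226 and 1336 in the Untreated and 877 and 972 in the IAA libraries. The lowest Untreated library lay well above the highest IAA library. The mean went from 1281 ± 77.8 to 924.5 ± 67.2 (SD, n = 2 each), with limma giving a log2 fold change of -0.47 (SE 0.06, adjusted p = 4.57e-06), of -0.37 with median-of-ratios factors. Its adjusted p in the authors' deposited table was 0.00102. Cpsf2, the inactive partner of the endonuclease, did not fall with it: 1093 and 1137 in the Untreated and 1231 and 1142 in the IAA libraries gave a log2 fold change of 0.089 that was not called, and of 0.19, called higher, with median-of-ratios factors. The difference between Cpsf3 and Cpsf2 was not tested. Rbbp6, which activates cleavage, fell from 1647 to 1724 in the Untreated to 1345 to 1494 in the IAA libraries (log2 fold change -0.25, SE 0.05, limma adjusted p = 0.00104). Sympk encodes symplekin, the scaffold shared by the mRNA and histone cleavage complexes. It was called lower with the smallest change of any called member (-0.11, SE 0.04, limma adjusted p = 0.0346). With median-of-ratios factors it stood at -0.014 and was not called. By voom it was not called without Untreated replicate 2 (adjusted p = 0.217), IAA replicate 1 (adjusted p = 0.150) or IAA replicate 2 (adjusted p = 0.0983).

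CstF binds the GU-rich stretch downstream of the cut. Its RNA-binding subunit has 2 genes, the X-linked Cstf2 and its intronless copy Cstf2t. Cstf2 had 1156 and 1101 in the Untreated and 1147 and 1144 in the IAA libraries, with overlapping groups and a log2 fold change of 0.022. Cstf2t had 600 and 641 in the Untreated and 716 and 692 in the IAA libraries, all IAA values above the Untreated ones. Its rise of 0.18 on the log2 scale (SE 0.07; limma adjusted p = 0.0317) was not called by voom without Untreated replicate 1 (adjusted p = 0.205), IAA replicate 1 (adjusted p = 0.172) or IAA replicate 2 (adjusted p = 0.0543). The authors' counting could split reads between the paralogues, and the difference between them was not tested. Cstf3, the subunit that holds CstF together, fell at the deposited scaling (-0.22, SE 0.06, limma adjusted p = 0.00526) and was not called with median-of-ratios factors (-0.12, limma adjusted p = 0.104). Cstf1 was not called (-0.12).

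No gene of cleavage factor I was called at the deposited scaling or with median-of-ratios factors. This factor binds UGUA upstream of the cut through Nudt21 and activates the site through Cpsf6 or Cpsf7. Cpsf6 had 3139 and 3133 in the Untreated and 3080 and 3163 in the IAA libraries, and Cpsf7 had 988 and 1048 against 1062 and 1021. The log2 fold changes were -0.0068 and 0.033, with overlapping groups in both. With library totals Cpsf6 (0.098, limma adjusted p = 0.0346) and Cpsf7 (0.14, limma adjusted p = 0.0393) were called higher, beside 20.5% of all genes. Nudt21 stood at -0.086 (limma adjusted p = 0.139) and at 0.013 with median-of-ratios factors. In cleavage factor II, Pcf11, which binds the polymerase's carboxy-terminal domain and promotes termination, fell from 1085 to 1092 in the Untreated to 901 to 951 in the IAA libraries (-0.23, SE 0.06, limma adjusted p = 0.00231). It was not called with the libraries scaled to their totals (-0.13, limma adjusted p = 0.0571). Clp1, an RNA kinase, was not called (0.081).

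Neither poly(A) polymerase was called at the deposited scaling. Papola had 3740 and 4084 in the Untreated and 3896 and 3951 in the IAA libraries, so the groups overlapped and the log2 fold change was 0.0056 (SE 0.04; 0.10, called higher, with median-of-ratios factors). Papolg had 443 and 424 in the Untreated and 452 in both IAA libraries (log2 fold change 0.060, SE 0.07), which was not called. Xrn2, the termination exonuclease (ENSMUSG00000027433, chromosome 2, 147012996 to 147078000, plus strand, GRCm38), had 1573 and 1629 in the Untreated and 1151 and 1133 in the IAA libraries. The gap between the groups was far wider than the spread within either. The mean went from 1601 ± 39.6 to 1142 ± 12.7 (SD, n = 2 each), with limma giving a log2 fold change of -0.49 (SE 0.05, adjusted p = 2.78e-07), the lowest p among the members, and of -0.39 with median-of-ratios factors. In the authors' deposited table its adjusted p was 0.000153. No other gene's exons overlap those of Xrn2.

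The levels of the members spanned a wide range when set against exon length. Per kilobase of exon, Papola was highest in the Untreated libraries at 593 ± 36.9 normalised reads (SD, n = 2), followed by Cpsf1 at 411 ± 3.01 and Xrn2 at 402 ± 9.95. The last 2 did not differ beyond their spread. Nudt21 came next at 366 ± 5.95. Ints3 led the Integrator genes at 301 ± 4.23 per kilobase, and did not differ beyond its spread from Sympk and Cpsf6. The endonuclease genes Ints11 (244 ± 23.3) and Cpsf3 (243 ± 14.7) had levels per kilobase that did not differ beyond their spread, with Cpsf4 (248 ± 0.393) beside them. At the low end per kilobase stood Cpsf4l (45.2 ± 13.5), Ints7 (43.6 ± 0.580), Ints12 (41.2 ± 0.356) and Ints6 (37.6 ± 0.589), and the spread of Cpsf4l covered the other 3. Ints6, with the lowest Untreated mean per kilobase, stood at 52.8 ± 1.22 per kilobase in the IAA libraries. Its merged exons were the longest of the members (16805 bases), and its Untreated mean of 632 reads was not the lowest. The order depends on exon length summed over all annotated exons of a gene. Which annotation was used for counting is not given in the sources used here. In the order of the 36 genes, 17 of 35 neighbouring pairs lay closer together than the larger of their SDs.

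**Figure D3:**
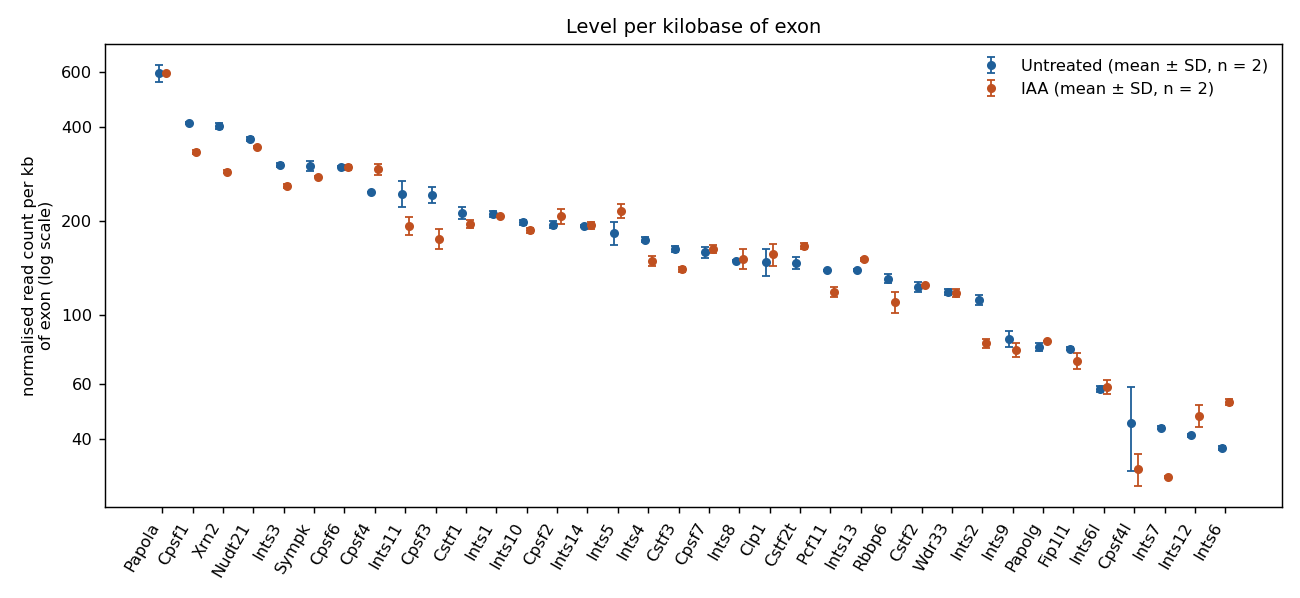
Normalised read count per kilobase of exon (y axis, log scale) of the 36 members (x axis, in order of the Untreated level), as mean ± SD of 2 libraries in the Untreated (blue) and IAA (orange) groups. Papola is highest at 593 and Ints6 lowest at 37.6 in the Untreated group.

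The members with few exons tended to lie higher after IAA than those with many. Exon blocks, the merged exons of a gene in GENCODE M21, numbered 1 in Cstf2t, 2 in Ints5, 7 in Cpsf4 and 29 in Xrn2. The 8 members with fewer than 10 blocks had a median log2 fold change of 0.13, and 5 of them were above 0. For the 28 members with 10 or more blocks the median was -0.098, and 10 were above 0. Across the 36 genes Spearman's rho between exon blocks and log2 fold change was -0.46, against -0.13 across 14919 tested genes, and -0.23 against -0.054 for gene length. These are correlations across genes of the same 4 libraries, which are not independent replicates, and they are given as descriptions. Ints6, with 20 blocks, and Cpsf4l, with 9, lie away from that pattern. Cstf1 (6 blocks, -0.12) and Nudt21 (7 blocks, -0.086) also lay below 0, though neither was called. The cut at 10 blocks was not planned in advance. Exon length (rho 0.025) had almost no relation to the change.

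**Figure D4:**
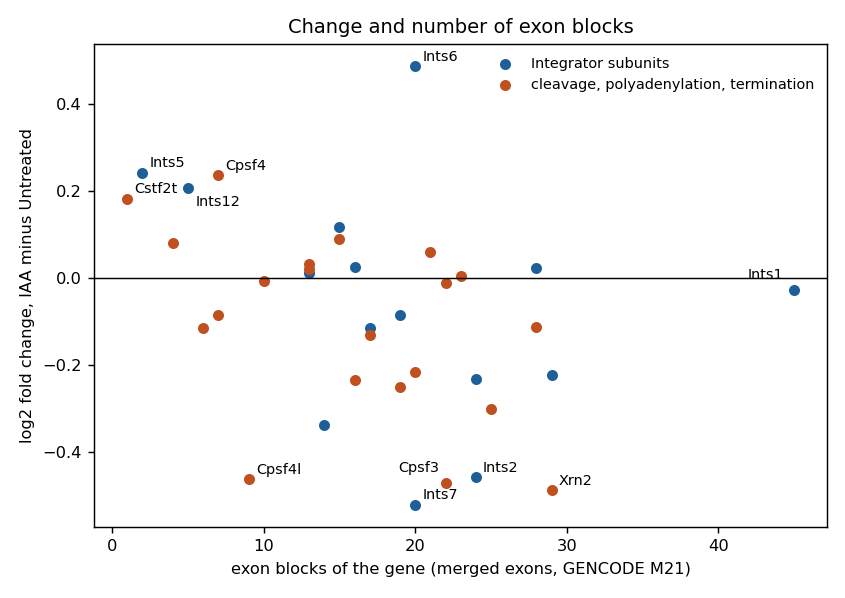
Log2 fold change (y axis, IAA minus Untreated) against the number of exon blocks of the gene (x axis) for the 36 members, with Integrator subunits in blue and the cleavage, polyadenylation and termination genes in orange. Cstf2t, Ints5, Ints12 and Cpsf4, each with under 10 blocks, lie above 0, and Xrn2 with 29 blocks lies at -0.49. Cpsf4l, Cstf1 and Nudt21, also with under 10 blocks, lie below 0.

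The mRNAs of proteins that work beside this machinery changed in both directions as well. Their counts at the deposited scaling stand beside 28.9% lower and 11.1% higher over all genes tested. For the counts with median-of-ratios factors, these shares were 20.6% and 20.0%. Among 10 partners of Integrator, 2 fell and 1 rose at the deposited scaling, and 1 fell and 4 rose with median-of-ratios factors. Nabp2, the single-strand DNA-binding partner of INTS3 in SOSS, had 243 and 289 in the Untreated and 206 and 184 in the IAA libraries (log2 fold change -0.44, limma adjusted p = 0.00302). Of the PP2A scaffold genes, Ppp2r1b was higher (0.17, limma adjusted p = 0.0128) and Ppp2r1a lower (-0.15, limma adjusted p = 0.00477), the latter not called with median-of-ratios factors. By voom, Nabp2 was not called without Untreated replicate 2 (adjusted p = 0.0561), Ppp2r1a without IAA replicate 2 (adjusted p = 0.0946), and Ppp2r1b without IAA replicate 1 (adjusted p = 0.0650) or IAA replicate 2 (adjusted p = 0.0559). Among 6 genes of histone pre-mRNA processing, 2 fell (Lsm11, a subunit of the U7 particle, -0.32, and Zfp473, -0.26) and 2 rose (Casp8ap2, 0.23, and the stem-loop binding protein gene Slbp, 0.17). With median-of-ratios factors 1 was lower and 3 were higher, and Zfp473 was no longer called. Each of these 4 calls was lost by voom without 1 library. Lsm11 stood at -0.21 without Untreated replicate 1 (adjusted p = 0.143), and Casp8ap2 at 0.14 without IAA replicate 2 (adjusted p = 0.118). Zfp473 stood at -0.16 without IAA replicate 2 (adjusted p = 0.278) and was not called without Untreated replicate 2 (adjusted p = 0.121). Slbp was not called without IAA replicate 1 (adjusted p = 0.0666). In the authors' deposited table, at an adjusted p under 0.05, 0 partners of Integrator and 0 histone processing genes were called in either direction. That stands beside 9.57% lower and 2.47% higher among the genes with an adjusted p there. At an unadjusted p under 0.05 that table had 0 partners, and 0 lower and 1 higher histone processing gene.

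Transcription termination genes outside the 36 showed 4 falls and 4 rises among 16, and 2 and 8 with median-of-ratios factors. Over all genes tested the shares were 28.9% lower and 11.1% higher, and 20.6% and 20.0% with those factors. Ppp1r10, the PNUTS subunit that targets protein phosphatase PP1 to the polymerase, had 594 and 560 in the Untreated and 893 and 853 in the IAA libraries. Both IAA values were far above the Untreated ones, a rise of 0.60 on the log2 scale (SE 0.06; limma adjusted p = 4.39e-07). Ttf2, an ATPase that releases the polymerase from DNA, fell by 0.39 on the log2 scale. For the enzymes and binding proteins of the poly(A) tail, 8 of 10 genes passed the filter, 4 fell and 1 rose (3 and 2 with median-of-ratios factors). Pabpc1, the main cytoplasmic poly(A)-binding protein, had 25526 and 24913 in the Untreated and 19636 and 20022 in the IAA libraries (log2 fold change -0.35, limma adjusted p = 6.01e-09). Pabpc4 was lower as well (-0.32), and Tent4b, a non-canonical poly(A) polymerase, was higher (0.32).

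Genes for the transcription of small nuclear RNA genes, where Integrator cuts, gave 1 fall and 1 rise among 10. With median-of-ratios factors they gave 1 and 5. All genes tested were 28.9% lower and 11.1% higher at the deposited scaling, and 20.6% and 20.0% with those factors. Ice2, a subunit of the little elongation complex, had 568 and 567 in the Untreated and 376 and 392 in the IAA libraries (log2 fold change -0.56, limma adjusted p = 4.48e-06). Snapc4, the largest subunit of the factor that binds these promoters, was higher (0.33). The cap-binding group of 6 genes gave 0 falls and 2 rises, and 0 and 5 with median-of-ratios factors. Srrt, called higher with those factors, is counted in this group and also among the histone processing genes. At an unadjusted p under 0.05, limma also had 0 lower in this group. Its called genes were Phax, the adaptor for export of small nuclear RNA, with 506 and 487 in the Untreated and 644 and 665 in the IAA libraries (log2 fold change 0.40, limma adjusted p = 1.02e-04), and Ncbp1 (0.13). By voom Ncbp1 was not called without Untreated replicate 2 (adjusted p = 0.206), IAA replicate 1 (adjusted p = 0.155) or IAA replicate 2 (adjusted p = 0.122). In the authors' deposited table the lower and higher calls were 2 and 2 for termination and 2 and 1 for the poly(A) tail. They were 1 and 0 for small nuclear RNA transcription and 0 and 0 for cap binding. Among the genes with an adjusted p there, 9.57% were lower and 2.47% higher. At an unadjusted p under 0.05, that table had 1 higher for small nuclear RNA transcription and 1 higher for cap binding. Small nuclear RNAs themselves carry no poly(A) tail, and their levels were not analysed here.

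**Figure D5:**
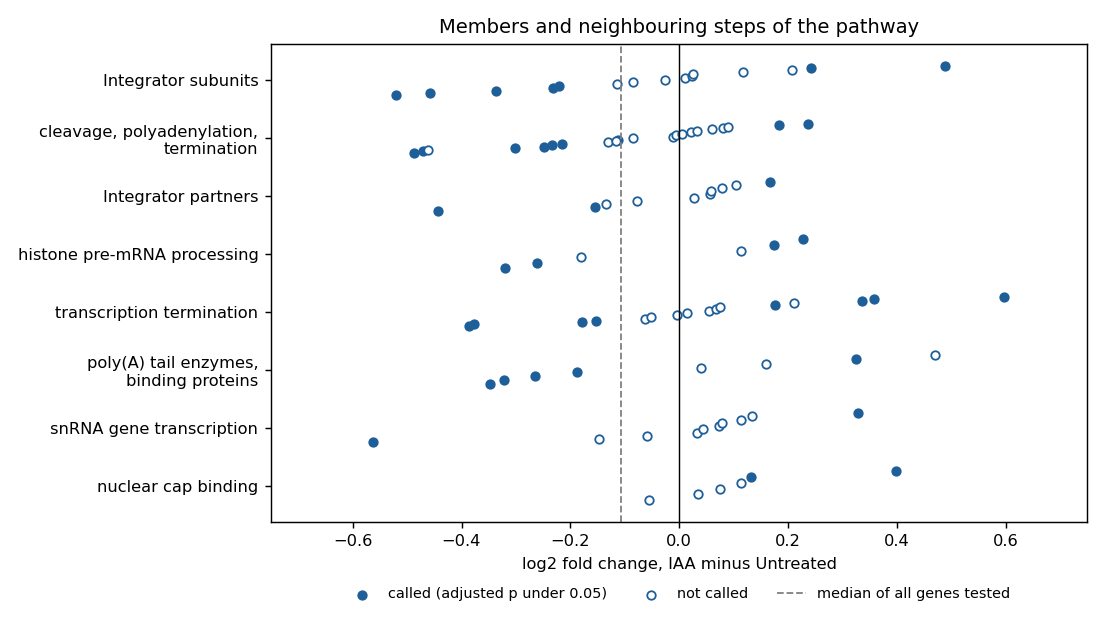
Log2 fold change (x axis, IAA minus Untreated) of the members and of the genes of 6 neighbouring steps (y axis), 1 point per gene in each row. Srrt stands in both the histone processing and the cap-binding row. Filled points were called at an adjusted p under 0.05, and the dashed line is the median of all genes tested. Both directions occur among the called genes in every row but the last, and Ppp1r10 at 0.60 and Ice2 at -0.56 lie farthest out.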

How the data were processed

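Poly(A) RNA of 4 libraries, 2 per group as their titles name them, was analysed from 1 table of 30282 genes. The tools in the submitters' processing notes, with no roles given, are DESeq2, featureCounts, STAR, Bowtie2, cutadapt 1.18, deepTools and SAMtools, and the builds are dm6 and mm10. The authors deposited 4 library columns of scaled values. Their values show that each is a read count over the library's size factor (0.88 and 0.87 for Untreated, 0.98 and 0.95 for IAA), rounded to a whole number. The deposited mean is a signal, from which whole reads were recovered for 100% of genes (tolerance 0.001). Further columns deposited by the authors hold log2 fold changes, a Wald score, p-values and adjusted p-values. The sources used here do not say whether the size factors come from the spike-in.

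The filter kept the 14928 genes whose mean was at least 10 and left out 15354. In R 4.3.3, limma 3.58.1 fitted log2(value + 1) with a trended empirical Bayes prior, and the Benjamini-Hochberg adjustment ran over all of them. The log2(value + 1) scale understates changes of low genes. The test was tried on simulated data with known changes, in far fewer genes than were called here. That checks the code and does not measure the error of the calls in these data. Scaled and rounded columns are not counts, so count tests were left out and voom of limma was run on recovered reads instead. The other alternatives were thresholds of 0.01 and 0.1, pseudocounts of 0.5 and 5, no filter, a minimum mean of 100, median-of-ratios factors, library totals, a replicate block, leaving out each library, and the authors' own tests. Leaving out each library under voom was added after seeing the data. With 1 library left out, its group's remaining library is taken to vary as the other group does.

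The members, the 6 lists and the markers were chosen with earlier results of these data known. Values per library are printed for called members with an absolute log2 fold change of at least 0.3, the catalytic members and the paralogue pairs, and per list for the called genes with the largest changes (up to 3, with values per library for some). The values of 1 such gene are not reported here. Further values per library, of Ints3 to Ints6l, Cpsf2, Rbbp6 and Pcf11, and the names of Slbp and Pusl1 were chosen after the values were seen. Coordinates, exons and transcript ends come from GENCODE M21 (GRCm38, which is mm10), and promoters from RefSeq. For the counting itself, neither annotation nor strand setting is given in the sources used here.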

Additional observations from a re-analysis of the deposited data

How the results depend on the processing

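Each group has 2 libraries, and the effect of depth was not tested. The numbers of members called lower and higher, 12 and 4, became 3 and 1 with no filter on low values and 4 and 1 in the authors' deposited table. With median-of-ratios factors 8 were higher, with library totals 10 (8 lower), and at an adjusted p under 0.01, 2. Among Integrator subunits, 5 lower and 2 higher became 1 and 1 with no filter and 1 and 1 in the authors' deposited table, 4 higher with median-of-ratios factors, with library totals or at an adjusted p under 0.1, and 1 higher at 0.01. For the cleavage and polyadenylation factors, 7 lower and 2 higher became 2 and 0 with no filter, 4 and 6 with library totals, 3 and 0 in the authors' deposited table, 4 higher with median-of-ratios factors and 1 at 0.01. Where the cleavage factors show 0, limma had 2 higher at an unadjusted p under 0.05 with no filter. Without any 1 library, limma on deposited values called 0 to 0 genes in each set (all 14928 genes had 3330 to 3682 lower and 1091 to 1588 higher at an unadjusted p under 0.05), a fit with 1 residual degree of freedom. By voom without 1 library, 12 members were lower each time and 2 to 4 higher, of which 1 to 3 Integrator subunits and 1 to 2 cleavage factors, the lowest counts coming without Untreated replicate 1 or IAA replicate 1 (for the cleavage factors also without IAA replicate 2). Pathway counts with median-of-ratios factors (lower and higher) stand beside 20.6% and 20.0% of all genes tested. They were 1 and 4 for Integrator partners, 1 and 3 for histone processing and 2 and 8 for termination. For the other lists they were 3 and 2 (poly(A) tail), 1 and 5 (small nuclear RNA transcription) and 0 and 5 (cap binding). The cause of these differences was not tested, beyond the upward shift of about 0.10 that the factors give by construction.

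No called member changed sign under any alternative run. With median-of-ratios factors and library totals, members that were not called changed sign to 0.071 and 0.078 (Ints1), 0.014 and 0.020 (Ints10), 0.086 and 0.093 (Wdr33), 0.013 and 0.019 (Nudt21) and 0.091 and 0.098 (Cpsf6). Without 1 library, limma on deposited values gave log2 fold changes on both sides of 0 for Ints6l (-0.026 to 0.076), Ints8 (-0.049 to 0.095), Ints14 (-0.015 to 0.037), Wdr33 (-0.043 to 0.019), Cstf2 (-0.013 to 0.057), Cpsf6 (-0.026 to 0.012), Cpsf7 (-0.0092 to 0.076), Clp1 (-0.021 to 0.18) and Papola (-0.058 to 0.069). Voom without 1 library turned the same 9, to -0.025 (Ints6l), -0.050 (Ints8), -0.015 (Ints14), 0.011 and 0.019 (Wdr33), -0.013 (Cstf2), 0.012 (Cpsf6), -0.0092 (Cpsf7), -0.021 and -0.0048 (Clp1) and -0.058 and -0.0043 (Papola). Deviations of same-numbered libraries were not correlated across genes (correlation 0.0015), which does not show whether those libraries shared a culture or day. With a replicate block 12 members were lower and 4 higher, but Cpsf4l (limma adjusted p = 0.0279) was called in place of Sympk (limma adjusted p = 0.0683).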
